A study of Mus musculus with 18 samples.

Results

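The genes described here are 41 genes of autophagy and the lysosome, chosen as a fixed list of gene symbols that covers the route from the kinase that starts an autophagosome to the enzymes that digest its content. This list, and a wider list described last, were chosen with earlier results of these data known. The symbols were matched to the Ensembl gene identifiers of the count table, and all 41 were found among its 55414 genes and among the 21772 genes with enough counts to be tested. They were measured by stranded RNA sequencing in C2C12 myotubes, an established mouse line whose myoblasts fuse into myotubes in low-serum medium. The cells had been transfected with a non-targeting siRNA (siNtc), with siRNA against Erk3 (siErk3, gene Mapk6) or with siRNA against Mk5 (siMk5, gene Mapkapk5), differentiated over 6 days, and then exposed for 16 h either to BSA alone or to palmitic acid at 0.5 mM carried by BSA (PA). The 6 groups are siNtc, siErk3 and siMk5, each in BSA and in PA, with 3 libraries per group and 18 in all. The study's methods place the 16 h of palmitic acid in serum-free medium and give control cells the matching BSA vehicle. Every group received an siRNA and BSA, so siNtc in BSA stands for control myotubes and not for untreated cells. All libraries come from the same cell line, siRNA lowers a transcript without deleting its gene, and nothing in the labels says that the 3 libraries of a group were separate cultures, so the errors below measure the spread between libraries, which may be technical.

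Autophagy encloses cytoplasm, protein aggregates or damaged mitochondria in a membrane vesicle, the autophagosome, and delivers it to the lysosome, an acidic organelle filled with hydrolases. In skeletal muscle the pathway removes worn mitochondria and supplies amino acids during fasting, and both too much and too little of it harm the fiber. Many lysosomal genes and some autophagy genes are known targets of Tfeb, Tfe3 and Mitf, the MiT/TFE transcription factors, which bind DNA motifs built around CACGTG and are held in the cytoplasm when the nutrient sensor mTORC1 is active.

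Levels are given as CPM, the counts scaled to a common library size by TMM normalization, which compare libraries for a given gene, and as RPKM, which also divide by exon length, where genes are set beside each other. That length counts every base of a gene's annotated exons, whichever transcripts the cells made, so the order by RPKM depends on the annotation. A gene was called changed when its FDR in edgeR's quasi-likelihood test was below 0.05 and its fold change exceeded 1.3 in either direction. The libraries held 13041979 to 28496727 assigned read pairs, and the smallest was siNtc BSA replicate 1. The share of pairs assigned to an 18S ribosomal RNA gene was 8.39 to 12.9% in siMk5 BSA and 1.71 to 6.69% in siMk5 PA, and 1.497 to 2.96% and 3.74 to 6.77% in siErk3 BSA and PA, so that it moved with palmitic acid in these silencing groups in opposite directions, whereas in siNtc it was 2.56 to 7.17% in BSA and 5.32 to 6.43% in PA. Mapk6 measured 135, 129 and 133 CPM in siNtc BSA and 56.6, 60.3 and 55.2 CPM in siErk3 BSA, and 215, 236 and 244 CPM and 131, 119 and 109 CPM in PA, without overlap, with log2 fold changes of -1.20 and -0.95. Mapkapk5 measured 2.53, 2.54 and 2.32 CPM in siNtc BSA and 1.18, 2.01 and 1.70 CPM in siMk5 BSA, and 2.52, 3.92 and 3.28 CPM and 2.43, 2.33 and 2.17 CPM in PA. These groups did not overlap either, but the log2 fold changes of -0.61 and -0.48 did not pass the test. The paper also reports an Mk5 mRNA decrease that missed its FDR threshold, and it checked the silencing of both targets at the protein level by Western blot. Plin2 and Angptl4, known fatty acid response genes, rose with PA by 3.03 and 4.09 on the log2 scale in siNtc. All 7 myotube markers were present, with summed levels of 8169 to 8432 CPM in siNtc BSA and 6660 to 6720 CPM in siNtc PA, 9287 to 10120 and 7473 to 8027 CPM in siErk3, and 7505 to 8072 and 7112 to 7292 CPM in siMk5. The 2 myoblast markers Pax7 and Myf5 summed to 47.1 to 51.1 CPM in siNtc BSA and 23.8 to 30.5 CPM in siNtc PA, 52.5 to 53.4 and 20.4 to 30.3 CPM in siErk3, and 45.6 to 52.8 and 23.8 to 27.9 CPM in siMk5. The 5 macrophage markers summed to 0.955 to 2.32 CPM over all libraries, with Adgre1 at 0 counts, and the 4 adipocyte markers to at most 0.0503 CPM, with Cfd and Plin1 at 0. The part of the shift in myotube and myoblast markers in the results below was not tested, and in bulk RNA fewer cells of a type and less RNA per cell cannot be told apart.

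In control myotubes in BSA the most abundant members per length were Lamp1 (208 ± 14.1 RPKM, SD, n = 3), Ctsd (144 ± 2.77), Gabarap (127 ± 8.03) and Sqstm1 (124 ± 4.16), of which Gabarap and Sqstm1 differed by less than their spread. The least abundant was Mitf at 1.53 ± 0.0697 RPKM, below Atg7 at 2.60 ± 0.0435 and Tfeb at 2.91 ± 0.254.

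In each silencing group far more of the listed genes rose than fell with palmitic acid. In siNtc 17 of the 41 genes passed, 16 higher and 1 lower in PA, where 30.6% of all tested genes passed, 15.5% higher and 15.1% lower. In siErk3 19 passed, 16 higher and 3 lower, against 32.1% of all genes, 15.8% higher and 16.3% lower. In siMk5 19 passed as well, 17 higher and 2 lower, against 29.7% of all genes, 15.1% higher and 14.6% lower. The share of members called was thus 41.5%, 46.3% and 46.3%, nearly all of it higher, whereas the calls over all genes were split about evenly. The all-gene shares, here and below, cover every tested gene, including many with few counts, for which a change is harder to detect. They were not matched to the members by level, so part of a larger share among the members may reflect level. The median log2 fold change of the 41 genes was 0.29, 0.32 and 0.30, beside -0.025, -0.0078 and -0.015 over all tested genes, while the median size of a change regardless of sign was smaller in the list than over all genes, 0.35 against 0.46 in siNtc. Estimates for genes with few counts scatter more widely, so this comparison of sizes does not show a weaker response of the listed genes.

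By the FDR alone 32, 35 and 33 members differed (45.1%, 47.1% and 44.3% of all genes), so about 15 members in each silencing group (15, 16 and 14) passed the FDR with a change of less than 1.3-fold. The 3 BSA and 3 PA libraries did not overlap for 34, 37 and 35 of the 41 genes, where 51.3%, 53.9% and 51.9% of all tested genes did not overlap. Between silencing groups, 16 genes were called in all 3, 15 of them higher and only Tfeb lower, 3 in 2 groups, Ulk1 in siErk3 alone, and 21 in none. The fold changes had the same sign in all 3 groups for 40 genes, the exception being Lamp1. Calls in some groups and not in others do not show a difference between groups, which was tested separately and is given after the single genes.

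**Figure D1:**
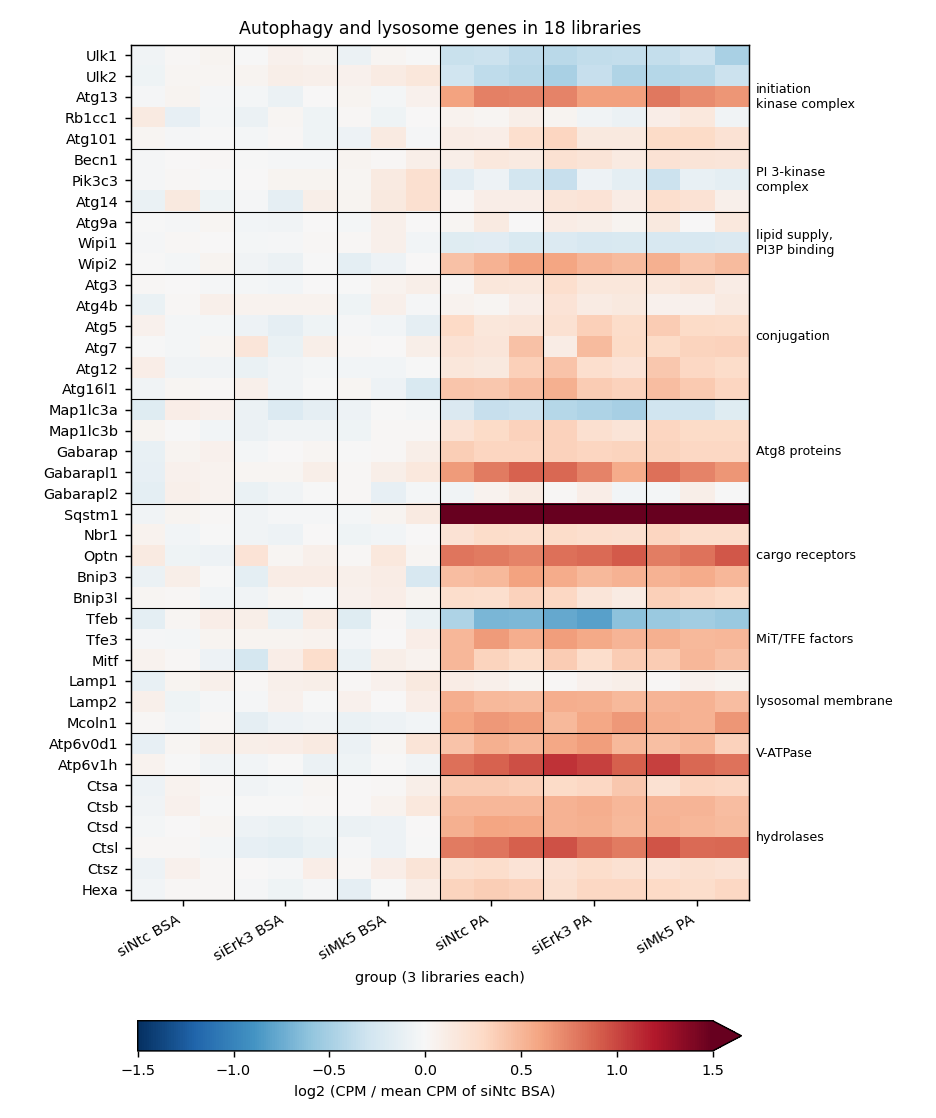
Level of the 41 genes (rows, by role) in the 18 libraries (columns, 3 per group), as log2 of the CPM over the mean CPM of siNtc BSA, with the color scale closed at -1.5 and open above 1.5. The BSA columns are pale in all 3 silencing groups, the PA columns are mostly red, Sqstm1 exceeds the scale, and Tfeb, Ulk1, Ulk2, Map1lc3a, Wipi1 and Pik3c3 are blue.

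The cargo receptors, which tie ubiquitinated proteins or mitochondria to the forming membrane, held the gene with the largest change. Sqstm1 (ENSMUSG00000015837, chr11:50090193-50101654, minus strand, GRCm39) encodes p62, a receptor for ubiquitinated cargo that is itself degraded by autophagy and is also a known target of the stress factor Nrf2. In siNtc the 3 libraries of Sqstm1 were at 401, 429 and 420.5 CPM in BSA and at 1994, 2246 and 2477 CPM in PA. With siErk3 they were 403, 411 and 412 CPM in BSA and 2704, 2380.4 and 2120.0 CPM in PA, and with siMk5 409.8, 428 and 458 CPM and 2370.3, 2215 and 2037 CPM. The highest BSA library, at 458 CPM, was far below the lowest PA library, at 1994 CPM. PA against BSA gave Sqstm1 a log2 fold change of 2.42 (SE 0.073) in siNtc, 2.56 (SE 0.073) in siErk3 and 2.35 (SE 0.073) in siMk5, or 5.37-fold, 5.88-fold and 5.11-fold (FDR at most 5.68e-22). Per length, Sqstm1 moved from the fourth to the first place of the list in siNtc, at 667 ± 71.9 RPKM.

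Optn encodes optineurin, a receptor for mitochondria and bacteria. Optn measured 18.7, 16.3 and 16.3 CPM in siNtc BSA and 29.8, 29.2 and 28.5 CPM in siNtc PA. In siErk3 the values were 19.6, 17.5 and 18.03 CPM (BSA) and 30.4, 30.8 and 32.2 CPM (PA), and in siMk5 17.4, 19.1 and 17.4 CPM and 29.1, 30.1 and 32.5 CPM. No BSA value reached a PA value. For Optn the log2 fold change was 0.78 (SE 0.070) in siNtc, 0.76 (SE 0.066) in siErk3 and 0.77 (SE 0.069) in siMk5 (FDR at most 6.82e-11). Bnip3, an outer-membrane receptor for mitophagy, changed less. The siNtc libraries held Bnip3 at 28.2, 32.05 and 29.98 CPM in BSA, against 41.4, 42.2 and 45.8 CPM in PA. The siErk3 libraries gave 27.1, 32.4 and 32.6 CPM in BSA and 44.1, 42.3 and 43.3 CPM in PA, the siMk5 libraries 31.7, 32.6 and 25.4 CPM and 43.2, 44.3 and 42.6 CPM. The BSA libraries ended at 32.6 CPM and the PA libraries began at 41.4 CPM. Its log2 fold change with PA was 0.51 (SE 0.076) in siNtc, 0.49 (SE 0.073) in siErk3 and 0.53 (SE 0.075) in siMk5 (FDR at most 1.15e-06). Nbr1, a receptor related to p62, and Bnip3l, the mitophagy receptor Nix, moved in the same direction by less than 1.3-fold. Nbr1 went from 169 ± 6.20 to 202 ± 4.38 CPM in siNtc (log2 fold change 0.26, FDR 6.43e-06), and Bnip3l from 91.97 ± 2.28 to 112 ± 4.32 CPM (0.29, FDR 7.49e-06). All 5 receptors on the list were thus higher in PA by the FDR in each silencing group, 3 of them past the fold criterion.

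The kinase complex that starts an autophagosome moved in both directions. Atg13, the adaptor that links the Ulk kinases to the rest of the complex, rose. Levels of Atg13 in siNtc were 49.2, 51.1 and 49.1 CPM in BSA and 75.5, 84.3 and 83.3 CPM in PA. After Erk3 silencing Atg13 was at 48.8, 46.8 and 49.98 CPM in BSA and 83.7, 76.3 and 76.3 CPM in PA, and after Mk5 silencing at 51.2, 48.96 and 52.1 CPM and 86.4, 81.3 and 78.6 CPM. The highest BSA library was at 52.1 CPM and the lowest PA library at 75.5 CPM. On the log2 scale Atg13 changed by 0.70 (SE 0.055) in siNtc, 0.70 (SE 0.053) in siErk3 and 0.69 (SE 0.054) in siMk5 (FDR at most 3.02e-12). Both kinases of the complex had lower levels in PA. For Ulk2, the siNtc libraries gave 83.9, 89.3 and 89.3 CPM in BSA and 70.9, 67.2 and 65.6 CPM in PA. With siErk3 they were 89.95, 93.2 and 92.1 CPM in BSA and 62.6, 68.8 and 63.9 CPM in PA, and with siMk5 91.3, 95.3 and 98.2 CPM and 64.99, 65.4 and 69.8 CPM. The groups did not overlap in any silencing group. PA against BSA gave Ulk2 a log2 fold change of -0.37 (SE 0.050) in siNtc, -0.49 (SE 0.049) in siErk3 and -0.51 (SE 0.050) in siMk5 (FDR at most 2.44e-07), so the kinase passed the fold criterion with siErk3 and siMk5 and lay just inside it with siNtc. Ulk1 is the kinase phosphorylated by AMPK and mTORC1. Ulk1 measured 84.3, 88.2 and 89.6 CPM in siNtc BSA and 69.3, 70.002 and 66.4 CPM in siNtc PA. In siErk3 the values were 87.2, 91.3 and 90.2 CPM (BSA) and 65.9, 67.6 and 67.99 CPM (PA), and in siMk5 82.2, 89.5 and 87.2 CPM and 68.1, 70.5 and 62.3 CPM. All 9 PA values were below all 9 BSA values. For Ulk1 the log2 fold change was -0.35 (SE 0.050) in siNtc, -0.42 (SE 0.049) in siErk3 and -0.36 (SE 0.050) in siMk5 (FDR at most 5.23e-07), past the fold criterion only in siErk3. Rb1cc1, the scaffold FIP200, did not pass in any group (log2 fold change 0.059, 0.0041 and 0.085), and Atg101, the partner of Atg13, gave 0.16, 0.24 and 0.25.

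**Figure D2:**
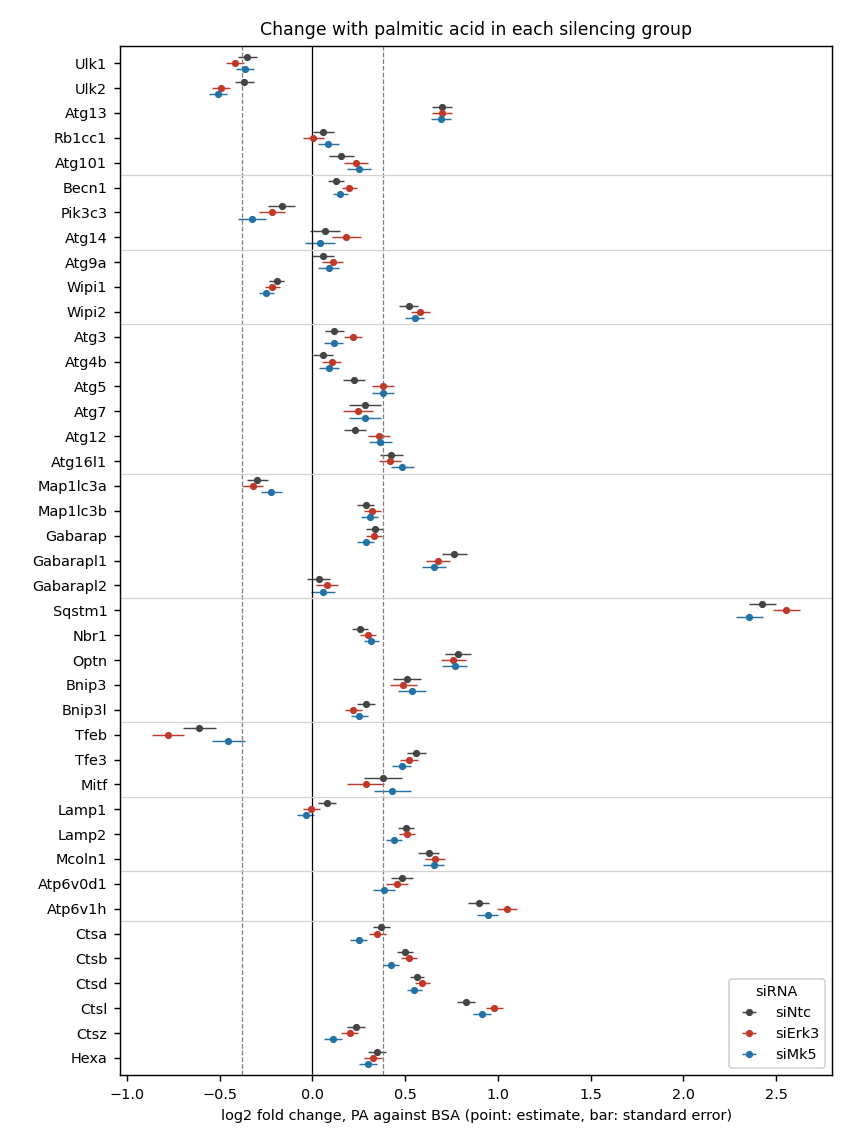
Log2 fold change of PA against BSA for the 41 genes (rows, ordered by role) in siNtc, siErk3 and siMk5, with points for the estimates, bars for the standard errors and dashed lines at a fold change of 1.3. The 3 points of a gene lie close together, Sqstm1 stands apart at 2.35 to 2.56, and left of the lower line lie Tfeb in all 3 groups, Ulk1 in siErk3, and Ulk2 in siErk3 and siMk5.

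None of the 3 members of the phosphatidylinositol 3-kinase complex, which marks the site of formation with the lipid PI3P, passed both criteria. Becn1, its regulatory subunit Beclin 1, was at 98.6 ± 1.37 CPM in siNtc BSA and 108 ± 2.57 CPM in PA, and differed by the FDR in each silencing group (log2 fold change 0.13, 0.20 and 0.15). The catalytic subunit Pik3c3 gave -0.17, -0.22 and -0.33, with an FDR of 0.0698, 0.0119 and 0.000442. Atg14, which directs the complex to autophagy, did not pass in any group (smallest FDR 0.0565).

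Of the proteins that bind PI3P, Wipi2, which recruits the conjugation machinery, rose and its relative Wipi1 did not. The siNtc libraries held Wipi2 at 84.4, 83.3 and 87.4 CPM in BSA, against 115, 122 and 129 CPM in PA. The siErk3 libraries gave 81.7, 79.7 and 84.4 CPM in BSA and 128, 121 and 118 CPM in PA, the siMk5 libraries 76.6, 80.4 and 85.3 CPM and 123, 114 and 118 CPM. The PA libraries started at 114 CPM, and the BSA libraries ended at 87.4 CPM. Its log2 fold change with PA was 0.52 (SE 0.051) in siNtc, 0.58 (SE 0.051) in siErk3 and 0.55 (SE 0.051) in siMk5 (FDR at most 5.04e-10). Wipi1 went the other way by less than 1.3-fold, with -0.19 (SE 0.041) in siNtc, -0.22 (SE 0.040) in siErk3 and -0.25 (SE 0.041) in siMk5 (FDR at most 0.000189). Atg9a, a lipid scramblase carried on vesicles to the forming membrane, did not pass (log2 fold change 0.055, 0.11 and 0.087). Its exons share 31.8% of their bases with Gm29253, a gene annotated on the same strand, and read pairs falling there were left unassigned, so its level is a lower estimate.

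The conjugation machinery attaches Atg8 proteins to the lipid phosphatidylethanolamine, and its 6 members all had positive fold changes in each silencing group. Atg16l1, the subunit that sets the place of conjugation, rose in all 3 groups. Levels of Atg16l1 in siNtc were 40.1, 42.4 and 42.2 CPM in BSA and 55.4, 54.998 and 57.4 CPM in PA. After Erk3 silencing Atg16l1 was at 43.8, 40.02 and 41.5 CPM in BSA and 60.4, 54.1 and 52.95 CPM in PA, and after Mk5 silencing at 42.3, 39.4 and 35.4 CPM and 57.4, 54.6 and 51.96 CPM. No BSA library exceeded 43.8 CPM, and no PA library was below 52.0 CPM. On the log2 scale Atg16l1 changed by 0.42 (SE 0.062) in siNtc, 0.42 (SE 0.061) in siErk3 and 0.48 (SE 0.062) in siMk5 (FDR at most 9.86e-07). In siErk3 it fell below the fold criterion without siErk3 BSA replicate 2 (0.377) or without siErk3 PA replicate 1 (0.34). Atg5, its partner in the conjugating complex, passed in siErk3 and siMk5, at the edge of the criterion. In siNtc the 3 libraries of Atg5 were at 31.3, 29.5 and 29.4 CPM in BSA and at 37.1, 33.9 and 34.2 CPM in PA. With siErk3 they were 28.4, 27.3 and 28.9 CPM in BSA and 35.2, 38.4 and 36.4 CPM in PA, and with siMk5 29.7, 29.3 and 27.3 CPM and 39.2, 36.9 and 36.3 CPM. PA values exceeded BSA values in each silencing group. PA against BSA gave Atg5 a log2 fold change of 0.23 (SE 0.060) in siNtc, 0.38 (SE 0.058) in siErk3 and 0.38 (SE 0.060) in siMk5 (FDR at most 0.00235), and the call in siErk3 was lost without siErk3 BSA replicate 1 (0.37) or 2 (0.35) or siErk3 PA replicate 2 (0.33) or 3 (0.37), and in siMk5 without siMk5 BSA replicate 3 (0.34) or siMk5 PA replicate 1 (0.33). It was also lost in siErk3 with the 18S share as a covariate (0.377), and in siMk5 by DESeq2 (0.37), with DESeq2's size factors (0.37), with filterByExpr (0.37) and with only the compared groups in the fit (0.36). Atg12, the ubiquitin-like protein joined to Atg5, came close with 0.23, 0.36 and 0.37. Atg7, the activating enzyme, gave 0.28, 0.24 and 0.28, and Atg3 and the protease Atg4b stayed at or below 0.22.

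The Atg8 proteins, which coat the inner and outer membrane and bind cargo receptors, did not move together. Gabarapl1, a known target of the Foxo factors in muscle, rose. Gabarapl1 measured 78.1, 89.01 and 88.1 CPM in siNtc BSA and 133, 146 and 157 CPM in siNtc PA. In siErk3 the values were 86.8, 86.5 and 90.4 CPM (BSA) and 155, 143 and 125 CPM (PA), and in siMk5 86.2, 90.4 and 95.2 CPM and 151, 142 and 135 CPM. The lowest PA library, at 125 CPM, was above the highest BSA library, at 95.2 CPM. For Gabarapl1 the log2 fold change was 0.77 (SE 0.066) in siNtc, 0.68 (SE 0.065) in siErk3 and 0.66 (SE 0.066) in siMk5 (FDR at most 6.93e-10). Gabarap and Map1lc3b, the gene of LC3B, the standard autophagosome marker, differed by the FDR and by less than 1.3-fold, Gabarap with 0.33, 0.33 and 0.29, and Map1lc3b with 0.29, 0.32 and 0.31. Map1lc3a, the gene of LC3A, had negative fold changes, -0.30, -0.32 and -0.22 (FDR at most 0.00165). In siNtc BSA it was at 91.02 ± 9.24 RPKM beside 16.6 ± 0.460 RPKM for Map1lc3b, and in PA at 74.3 ± 3.61 beside 20.2 ± 0.918. These values divide by annotated exon lengths of 1181 bases for Map1lc3a and 7517 bases for Map1lc3b. Without that division Map1lc3b was the higher, at 124.65 against 107.5 CPM in siNtc BSA and 152 against 87.8 CPM in siNtc PA. Gabarapl2 did not pass in any group (log2 fold change at most 0.078).

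The MiT/TFE factors changed in opposite directions. Tfeb (chr17:48047955-48103344, plus strand, GRCm39) was the only member called lower in PA in all 3 silencing groups. The siNtc libraries held Tfeb at 14.9, 16.9 and 17.7 CPM in BSA, against 11.97, 10.3 and 10.4 CPM in PA. The siErk3 libraries gave 17.4, 15.3 and 17.996 CPM in BSA and 9.68, 9.41 and 10.7 CPM in PA, the siMk5 libraries 14.5, 16.7 and 15.4 CPM and 11.2, 11.5 and 11.2 CPM. All 9 PA values, 9.41 to 11.97 CPM, lay below all 9 BSA values, 14.5 to 17.996 CPM. Its log2 fold change with PA was -0.61 (SE 0.089) in siNtc, -0.78 (SE 0.086) in siErk3 and -0.45 (SE 0.089) in siMk5 (FDR at most 6.99e-05). With the 18S share as a covariate the value in siMk5 was -0.34 with an FDR of 0.0759, so that call did not hold there. Tfe3 (chrX:7628799-7641441, plus strand, GRCm39), a paralog of Tfeb, rose. Levels of Tfe3 in siNtc were 46.5, 46.1 and 48.4 CPM in BSA and 66.2, 73.1 and 68.6 CPM in PA. After Erk3 silencing Tfe3 was at 48.5, 48.2 and 48.8 CPM in BSA and 72.4, 69.5 and 66.995 CPM in PA, and after Mk5 silencing at 45.7, 47.3 and 50.6 CPM and 68.1, 65.7 and 66.3 CPM. The BSA values ended at 50.6 CPM and the PA values began at 65.7 CPM. On the log2 scale Tfe3 changed by 0.56 (SE 0.052) in siNtc, 0.52 (SE 0.050) in siErk3 and 0.48 (SE 0.051) in siMk5 (FDR at most 2.51e-09). Per length, Tfe3 exceeded Tfeb in siNtc in BSA, 5.08 ± 0.133 against 2.91 ± 0.254 RPKM, and in PA, 7.48 ± 0.379 against 1.92 ± 0.169 RPKM.

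Mitf was the third member of the family on the list. Per length it was the least abundant member in siNtc BSA, and in siNtc PA it stood at 1.98 ± 0.162 RPKM beside 1.92 ± 0.169 RPKM for Tfeb, which differ by less than their spread. In siNtc the 3 libraries of Mitf were at 9.83, 9.54 and 8.98 CPM in BSA and at 13.4, 11.9 and 11.4 CPM in PA. With siErk3 they were 7.86, 10.1 and 11.3 CPM in BSA and 12.3, 11.4 and 12.3 CPM in PA, and with siMk5 8.81, 10.1 and 9.80 CPM and 12.4, 13.4 and 12.8 CPM. The PA values were above the BSA values in each silencing group, in siErk3 by as little as 11.36 against 11.34 CPM. PA against BSA gave Mitf a log2 fold change of 0.38 (SE 0.10) in siNtc, 0.29 (SE 0.098) in siErk3 and 0.43 (SE 0.10) in siMk5, with an FDR of 0.00295, 0.0163 and 0.000722, and in siErk3 it stayed under the fold criterion. In siNtc the fold change was at the criterion, and it fell below it by DESeq2 (0.36), with DESeq2's size factors (0.37), with filterByExpr (0.36), with no filter (0.3775), with only the compared groups in the fit (0.37), and without siNtc BSA replicate 2 (0.37) or 3 (0.32) or siNtc PA replicate 1 (0.31) or 2 (0.375). In siMk5 it was 0.29 with an FDR of 0.212 with the 18S share as a covariate, and 0.37 without siMk5 BSA replicate 1.

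**Figure D3:**
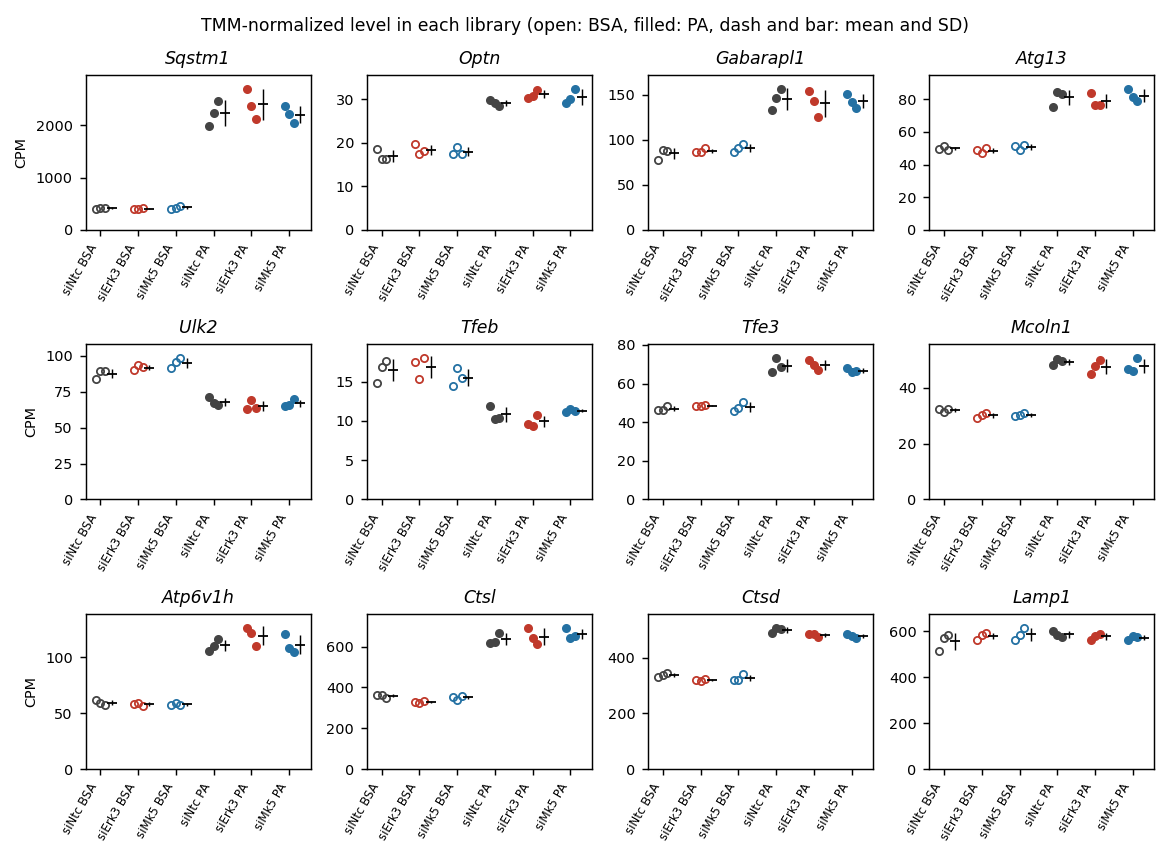
Level in CPM (axes from 0) of 12 genes in every library, with open points for BSA, filled points for PA, and a dash and bar for the mean and SD of the 3 libraries of a group. Sqstm1, Optn, Gabarapl1, Atg13, Tfe3, Mcoln1, Atp6v1h, Ctsl and Ctsd are higher in PA in each silencing group, Ulk2 and Tfeb are lower, and Lamp1 overlaps between BSA and PA.

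In the lysosomal membrane, 2 of 3 genes rose. Mcoln1 (chr8:3550457-3565232, plus strand, GRCm39) encodes TRPML1, the calcium channel whose opening activates Tfeb through calcineurin. Mcoln1 measured 32.5, 31.2 and 32.2 CPM in siNtc BSA and 48.1, 50.3 and 49.5 CPM in siNtc PA. In siErk3 the values were 29.1, 30.3 and 30.8 CPM (BSA) and 44.9, 47.8 and 49.97 CPM (PA), and in siMk5 29.7, 30.2 and 31.01 CPM and 46.7, 45.9 and 50.6 CPM. The highest BSA library was at 32.5 CPM and the lowest PA library at 44.9 CPM. For Mcoln1 the log2 fold change was 0.63 (SE 0.056) in siNtc, 0.66 (SE 0.055) in siErk3 and 0.65 (SE 0.056) in siMk5 (FDR at most 5.55e-11). Lamp2, which also serves as the receptor of chaperone-mediated autophagy, rose as well. The siNtc libraries held Lamp2 at 258, 234 and 242 CPM in BSA, against 357, 342 and 341 CPM in PA. The siErk3 libraries gave 242, 255 and 243 CPM in BSA and 356, 353 and 344 CPM in PA, the siMk5 libraries 256, 245 and 263 CPM and 347, 352 and 337 CPM. BSA libraries reached 263 CPM and PA libraries started at 337 CPM. Its log2 fold change with PA was 0.50 (SE 0.044) in siNtc, 0.51 (SE 0.043) in siErk3 and 0.44 (SE 0.044) in siMk5 (FDR at most 4.74e-10), and 0.31 in siMk5 with the 18S share as a covariate, under the fold criterion. Lamp1, the other abundant membrane glycoprotein, did not pass. Its mean was 555 ± 37.7 CPM in siNtc BSA and 587 ± 14.5 CPM in PA, with overlapping libraries in each silencing group and log2 fold changes of 0.079, -0.0059 and -0.036, whose 95% intervals reached at most 0.17 upward and -0.13 downward.

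The V-ATPase is the proton pump that acidifies the lysosome, and both of its listed subunits rose. Atp6v1h (chr1:5140241-5232752, plus strand, GRCm39), a subunit of the soluble V1 part, came second in the list after Sqstm1. Levels of Atp6v1h in siNtc were 61.6, 59.2 and 57.3 CPM in BSA and 106, 109.6 and 116 CPM in PA. After Erk3 silencing Atp6v1h was at 57.8, 59.3 and 55.8 CPM in BSA and 126, 121 and 110.2 CPM in PA, and after Mk5 silencing at 56.9, 59.1 and 57.1 CPM and 120.4, 108 and 104 CPM. The lowest PA value was 104 CPM and the highest BSA value 61.6 CPM. On the log2 scale Atp6v1h changed by 0.90 (SE 0.057) in siNtc, 1.05 (SE 0.056) in siErk3 and 0.94 (SE 0.057) in siMk5 (FDR at most 2.72e-14). Atp6v0d1, a subunit of the membrane-bound V0 part, changed less. In siNtc the 3 libraries of Atp6v0d1 were at 61.2, 68.1 and 71.3 CPM in BSA and at 90.03, 96.4 and 94.8 CPM in PA. With siErk3 they were 70.9, 71.6 and 73.6 CPM in BSA and 99.9, 103 and 93.9 CPM in PA, and with siMk5 63.1, 68.2 and 76.2 CPM and 91.5, 94.3 and 85.1 CPM. The groups did not overlap. PA against BSA gave Atp6v0d1 a log2 fold change of 0.48 (SE 0.061) in siNtc, 0.46 (SE 0.059) in siErk3 and 0.39 (SE 0.060) in siMk5 (FDR at most 2.58e-06). In siMk5 it fell under the fold criterion by DESeq2 (0.375), with DESeq2's size factors (0.375), with only the compared groups in the fit (0.37), with the 18S share as a covariate (0.31), and without siMk5 BSA replicate 1 (0.32) or siMk5 PA replicate 1 (0.37) or 2 (0.35).

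All 6 listed lysosomal hydrolases had positive fold changes with PA, and 3 cathepsins passed in each silencing group. Ctsl, the cysteine protease cathepsin L, showed the largest change. Ctsl measured 361, 363 and 349 CPM in siNtc BSA and 615, 622 and 669 CPM in siNtc PA. In siErk3 the values were 329.6, 322 and 335 CPM (BSA) and 692, 641 and 613 CPM (PA), and in siMk5 355, 339.9 and 357 CPM and 689.9, 642 and 650.1 CPM. The lowest PA library was at 613 CPM and the highest BSA library at 363 CPM. For Ctsl the log2 fold change was 0.83 (SE 0.047) in siNtc, 0.98 (SE 0.047) in siErk3 and 0.91 (SE 0.047) in siMk5 (FDR at most 1.77e-15). Ctsd, the aspartic protease cathepsin D, was the most abundant of them per length. The siNtc libraries held Ctsd at 331, 339.6 and 344 CPM in BSA, against 488, 508 and 504 CPM in PA. The siErk3 libraries gave 319.9, 316 and 324 CPM in BSA and 485, 488 and 474 CPM in PA, the siMk5 libraries 319, 321 and 341 CPM and 484, 479 and 471 CPM. The highest BSA library was at 344 CPM and the lowest PA library at 471 CPM. Its log2 fold change with PA was 0.56 (SE 0.040) in siNtc, 0.59 (SE 0.040) in siErk3 and 0.55 (SE 0.040) in siMk5 (FDR at most 5.72e-13). Ctsb is the cysteine protease cathepsin B. Levels of Ctsb in siNtc were 343, 372 and 354 CPM in BSA and 502, 504 and 505 CPM in PA. After Erk3 silencing Ctsb was at 354, 355 and 360.5 CPM in BSA and 512, 519 and 503 CPM in PA, and after Mk5 silencing at 356, 371 and 398 CPM and 507, 508 and 492 CPM. Every PA library was above every BSA library. On the log2 scale Ctsb changed by 0.50 (SE 0.043) in siNtc, 0.52 (SE 0.043) in siErk3 and 0.42 (SE 0.043) in siMk5 (FDR at most 7.76e-10).

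Ctsa, Ctsz and Hexa, a protective carboxypeptidase, a carboxypeptidase and a subunit of hexosaminidase, stayed under 1.3-fold. Ctsa gave 0.37, 0.35 and 0.25, and Hexa 0.35, 0.33 and 0.30, all past the FDR. Ctsz gave 0.24, 0.20 and 0.11, of which the last had an FDR of 0.0572. Exons of Ctsd share 34.4% of their bases with Gm49369 and those of Ctsl 6.09% with Gm49230, each annotated on the same strand, so pairs falling there were not counted for these genes.

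The promoter windows of the list were searched for the core of the motif bound by MiT/TFE factors, CACGTG, and for the longer palindrome TCACGTGA that contains it, on both strands, in 300 bases from 250 before to 50 after the start of each gene in RefSeq (GRCm38.p6). Windows were at hand for 32 of the 41 genes. CACGTG was found in 11 of the 32 genes (34.4%), beside 10.7% of the 12771 tested genes with a window and 8.09% of all 27025 genes with a window, and TCACGTGA in 5 (15.6%), beside 1.94% and 1.12%. In a wider list of pathway genes, described last, 18 of the 98 genes with a window (18.4%) held CACGTG and 5 (5.1%) TCACGTGA. Among the 12 genes with a window that were higher in PA in all 3 silencing groups CACGTG occurred in 5 (41.7%), and among the other 20 in 6 (30%). Matches of TGACNNNGC, the core of the antioxidant response element, occurred in 7 of the 32 genes (21.9%, against 16.6% of tested genes), and of TGATGNAA, a form of the element bound by ATF4, in 2 (6.25%, against 3.04%). These are matches of letters in short windows and not sites shown to be bound. Many lysosomal genes were already known targets of MiT/TFE factors, so a larger share with CACGTG in this list is not a test of these factors in these cells.
The sites below, 30 bases each with the matched letters in capitals, are shown because they lie in genes that rose with PA (Mcoln1, Ctsd, Atp6v0d1, Bnip3, Ctsl), in Lamp1, Ctsa, Atg3, Atg7 and Atg14, which did not pass both criteria in any silencing group, and in Atg5. The strand is that of the gene, and the build is GRCm38.p6.
Mcoln1 (chr8:3500436-3500465, plus strand): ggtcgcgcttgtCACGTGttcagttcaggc
Mcoln1 (chr8:3500462-3500491, plus strand): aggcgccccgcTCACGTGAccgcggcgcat
Ctsd (chr7:142387908-142387937, minus strand): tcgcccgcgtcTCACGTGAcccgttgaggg
Atp6v0d1 (chr8:105566050-105566079, minus strand): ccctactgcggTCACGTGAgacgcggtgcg
Bnip3 (chr7:138909597-138909626, minus strand): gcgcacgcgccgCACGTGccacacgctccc
Ctsl (chr13:64370739-64370768, minus strand): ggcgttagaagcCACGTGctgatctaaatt
Lamp1 (chr8:13159088-13159117, plus strand): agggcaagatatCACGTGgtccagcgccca
Lamp1 (chr8:13159104-13159133, plus strand): tggtccagcgccCACGTGatgccgactggc
Lamp1 (chr8:13159121-13159150, plus strand): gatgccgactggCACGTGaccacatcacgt
Lamp1 (chr8:13159134-13159163, plus strand): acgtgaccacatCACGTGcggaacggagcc
Ctsa (chr2:164833749-164833778, plus strand): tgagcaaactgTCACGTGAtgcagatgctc
Ctsa (chr2:164833766-164833795, plus strand): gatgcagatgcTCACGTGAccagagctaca
Atg5 (chr10:44268313-44268342, plus strand): cggagcgcttgcCACGTGgtcttggtgacg
Atg3 (chr16:45158723-45158752, plus strand): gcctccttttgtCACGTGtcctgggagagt
Atg3 (chr16:45158746-45158775, plus strand): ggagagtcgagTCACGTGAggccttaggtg
Atg7 (chr6:114670952-114670981, plus strand): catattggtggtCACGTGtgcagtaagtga
Atg14 (chr14:47568418-47568447, minus strand): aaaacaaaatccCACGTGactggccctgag
Mcoln1 had 2 matches, at positions -71 and -45 from the start, Ctsd 2, at -245 (not shown) and -98, and Atg3 2, at -94 and -71. Lamp1 had 4 between -61 and -10, the largest number among the 32 genes, and did not pass the test with PA. Sqstm1, with the largest change, had no match of CACGTG in its window, and none of TGACNNNGC or TGATGNAA either.

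None of the 41 genes passed the test for Erk3 or Mk5 silencing in either medium, and the decrease of Mapkapk5 RNA in siMk5 had not passed either. Both silencing effects were measured against the same siNtc libraries. With siErk3 against siNtc in BSA, 0 members were called by edgeR and by DESeq2, where 0.785% of all tested genes were called, and 2 members, Ctsl and Map1lc3a, had an unadjusted p below 0.05. In PA the same comparison called 0 members by either tool (0.556% of all genes), with 2 members, Map1lc3a and Atp6v1h, below an unadjusted p of 0.05. With siMk5 against siNtc, 0 members were called by either tool in BSA (0.0643% of all genes) and in PA (0.547%), and Ulk2 and Ctsz in BSA and 0 members in PA were below an unadjusted p of 0.05. The log2 fold changes ran from -0.14 (Map1lc3a) to 0.12 (Optn) for siErk3 in BSA, from -0.17 (Map1lc3a) to 0.11 (Atp6v1h) for siErk3 in PA, from -0.098 (Tfeb) to 0.13 (Atg14) for siMk5 in BSA, and from -0.088 (Ctsa) to 0.11 (Atg101) for siMk5 in PA. The 95% interval around the fold change stayed within 1.3-fold in either direction for all 41 genes in each of these 4 comparisons, reaching at most -0.32 (Tfeb, siErk3 in PA) and 0.29 (Atg14, siMk5 in BSA).

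Setting siErk3 and siMk5 directly against each other gave no call among the members either. In BSA 0 members were called by edgeR or DESeq2 (0.588% of all genes), and 0 had an unadjusted p below 0.05. In PA 0 were called by either tool (1.03% of all genes), and 4, Map1lc3a, Bnip3l, Atp6v0d1 and Tfeb, had an unadjusted p below 0.05. Map1lc3a came nearest to a call. In PA it measured 92.7, 84.9 and 85.7 CPM in siNtc, 80.1, 77.7 and 76.2 CPM in siErk3 and 87.5, 87.4 and 94.4 CPM in siMk5. Its log2 fold change in PA was -0.20 between siErk3 and siMk5 (FDR 0.0764 by edgeR, and -0.19 with an FDR of 0.0483 by DESeq2) and -0.17 between siErk3 and siNtc (FDR 0.253), which is less than 1.3-fold. The siErk3 PA libraries were the lowest 3 of the 9 PA libraries for this gene.

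The response to PA itself was compared between silencing groups by the interaction of silencing and medium. For siErk3 against siNtc 0 members were called by edgeR or DESeq2 (0.0367% of all genes), and only Ctsl had an unadjusted p below 0.05. Its response was larger by 0.15 on the log2 scale with siErk3 (FDR 0.741). For siMk5 against siNtc 0 were called by either tool (0.211% of all genes), and 0 had an unadjusted p below 0.05. Sqstm1 differed by 0.13 (SE 0.098) with siErk3 and -0.071 (SE 0.098) with siMk5, and Tfeb by -0.17 and 0.16. The intervals lay within 1.3-fold for 40 of 41 genes in each of these comparisons. Tfeb was the exception both times, reaching -0.41 with siErk3 and 0.40 with siMk5, so the intervals of Tfeb include differences of this size.

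**Figure D4:**
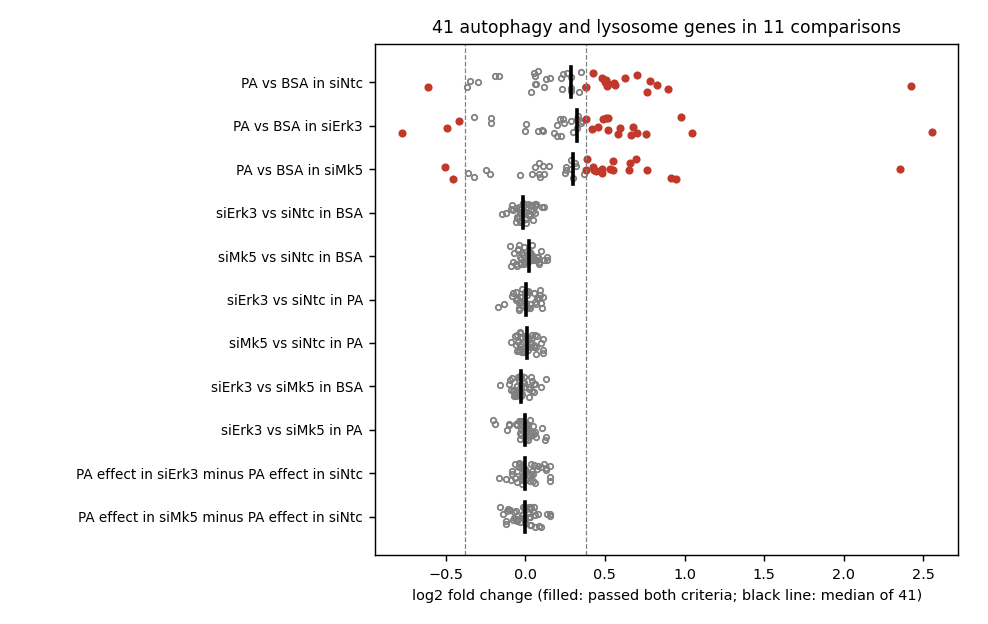
Log2 fold change of each of the 41 genes (points, jittered vertically) in the 11 comparisons, with filled points for genes that passed both criteria, a black line for the median and dashed lines at a fold change of 1.3. Filled points occur only in the 3 comparisons of PA with BSA, and in the 8 others every point lies between the dashed lines.

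A list of 115 further genes of the pathway, written down by role, of which all but Tfec and Mcoln2 were tested, gave a more mixed picture of the response to PA. In siNtc 30 were higher and 9 lower, in siErk3 31 and 13, and in siMk5 33 and 11, which is 34.5%, 38.9% and 38.9% of the list (all genes 30.6%, 32.1% and 29.7%). The median log2 fold change was 0.15, 0.16 and 0.14. Between silencing groups 27 genes were higher and 8 lower in all 3. For the counts by role below, the shares over all genes were 15.5%, 15.8% and 15.1% higher and 15.1%, 16.3% and 14.6% lower. The roles hold few genes, so a count near these shares is not a result about the role.

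Of the 17 V-ATPase subunits of the wider list, 8, 9 and 9 rose in siNtc, siErk3 and siMk5, 1, 1 and 0 were lower, and the others did not pass. Atp6v0d2, the paralog of Atp6v0d1 known from osteoclasts and macrophages, had the largest change of the wider list, from 0.480 ± 0.141 to 8.40 ± 1.14 CPM in siNtc, a log2 fold change of 4.14 (SE 0.23), with 3.94 in siErk3 and 4.06 in siMk5. The macrophage markers in the same libraries summed, without TMM scaling, to at most 2.32 CPM and did not exceed 2.11 CPM in PA. Even after this rise Atp6v0d2 stayed below Atp6v0d1 per length, 3.09 ± 0.421 against 52.3 ± 1.85 RPKM. Atp6v0b, another V0 subunit, went from 96.1 ± 2.65 to 191 ± 5.92 CPM in siMk5 (0.99).

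Of the genes for formation of the autophagosome, 4, 4 and 5 of 18 were higher and 0 lower, led by Tmem41b, an endoplasmic reticulum scramblase, at 26.9, 22.8 and 24.8 CPM in siNtc BSA and 74.2, 73.2 and 75.8 CPM in siNtc PA (log2 fold change 1.59, 1.52 and 1.44). In the group for fusion with the lysosome 2 of 7 were higher in each silencing group and 0, 0 and 1 lower, and the tethering factor Epg5 was among the higher ones (1.19, 1.18 and 1.01). Lysosomal membrane genes were higher for 4, 4 and 5 of 10 and lower for 0, with Npc1, which exports cholesterol from the lysosome, at 1.41, 1.43 and 1.31.

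The hydrolases of the wider list went in both directions. Of 35 tested, 7 were higher in each silencing group and 7, 10 and 9 lower (all genes 15.5%, 15.8% and 15.1% higher and 15.1%, 16.3% and 14.6% lower). The acid ceramidase Asah1 went from 112 ± 4.47 to 195 ± 5.19 CPM in siNtc (0.80), and the alpha-galactosidase Gla from 10.1 ± 0.603 to 30.7 ± 0.945 CPM in siErk3 (1.60). In the other direction, the lysosomal mannosidase Man2b1 had log2 fold changes of -0.61, -0.82 and -0.74, the iduronate sulfatase Ids -0.49, -0.74 and -0.68, the arylsulfatase Arsb -0.67, -0.99 and -0.99, and the nuclease Dnase2a -0.52 in siNtc. Gusb, the beta-glucuronidase, was among the lower genes in siMk5 at -0.49. The uniform direction of the 6 listed hydrolases did not extend to these enzymes.

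Among 16 tested genes of nutrient sensing and regulation 4 were higher and 1 lower in each silencing group. The lower gene was Foxo1, a transcription factor that drives autophagy and atrophy genes in muscle, at 78.2 ± 4.52 CPM in siNtc BSA and 41.5 ± 4.42 CPM in PA (-0.92, -1.11 and -0.98). Of the cargo receptors 1 of 10 was higher in each group, and Calcoco1, a receptor for the endoplasmic reticulum, was lower in siErk3 (-0.41). The only gene of the wider list that was called for silencing was Rragd, a GTPase that recruits mTORC1 to the lysosome and a known Tfeb target. It was higher with siErk3 in BSA, 8.93 ± 1.17 against 6.18 ± 0.319 CPM, a log2 fold change of 0.53 (SE 0.11, FDR 0.0062). Rragd was not called with siErk3 in PA. A single call among 113 tested genes is near the share over all genes in that comparison, 0.785%.

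**Figure D5:**
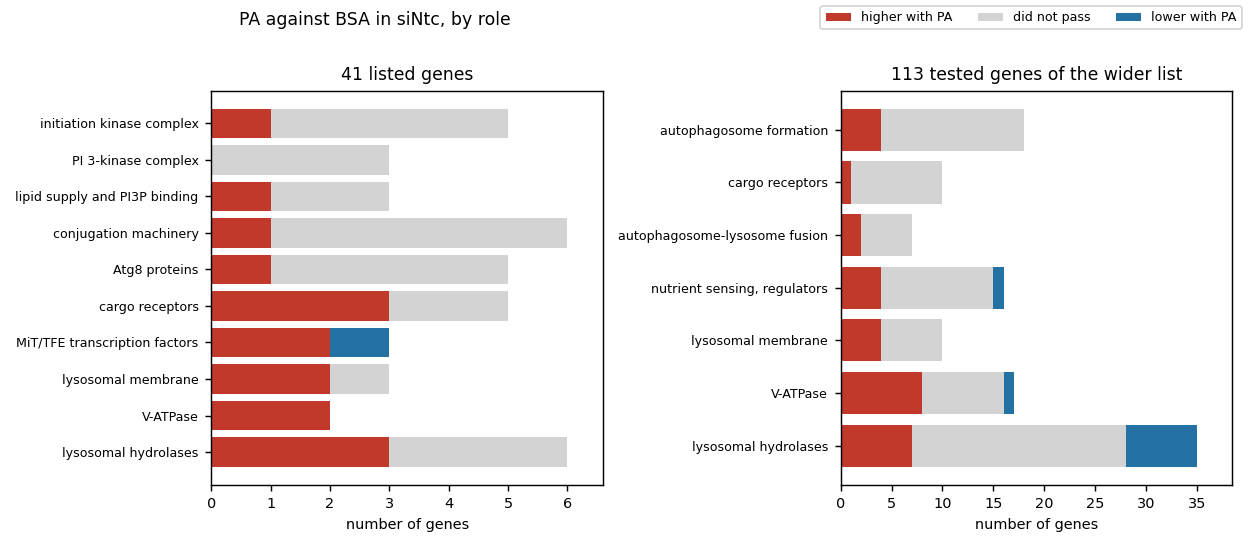
Number of genes (horizontal axes from 0) higher, lower or not passing in PA against BSA in siNtc, by role, for the 41 listed genes on the left and the tested genes of the wider list on the right. Among the listed genes only 1 MiT/TFE factor, Tfeb, is lower, whereas 7 of 35 hydrolases of the wider list are higher and 7 lower.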

How the data were processed

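RNA of C2C12 myotubes was sequenced in 18 libraries. Per the study's methods, the authors trimmed reads with cutadapt and TrimGalore, aligned them with STAR and counted read pairs per Ensembl 105 gene on GRCm39 with featureCounts 2.0.0, on the strand of the gene and with a minimum mapping quality of 3, which admits pairs with 2 equally good places, so near-identical genes may be blurred. Pairs in exons of several genes of the same strand were left unassigned. The counts were used as deposited. The deposited log2 table holds log2 of the normalized count plus 1 and was only checked against the counts. The 21772 genes with a total count of at least 10 over all libraries were tested. Symbols came from GENCODE M39 (21601 of 21772). No column of other samples was present (0).

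All 6 groups were fitted together with edgeR 4.0.16 (TMM, quasi-likelihood test, 2-sided, R 4.3.3) and 11 contrasts were tested. P-values were adjusted by Benjamini-Hochberg over all 21772 genes. A call needed an FDR below 0.05 and a fold change over 1.3. Intervals are 1.96 SE wide on each side. Alternatives were DESeq2 1.42.0, its size factors, filterByExpr, no filter, only the compared groups, the 18S share as a covariate, the FDR alone, a block for the replicate number, and leaving out each library. The statistics were tested on simulated data.

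Members called in any comparison are given in every library, and the others by a range or count. Of the wider list, up to 5 called genes per direction and comparison with the smallest adjusted p may be named. The members and lists were chosen with earlier results of these data known. Promoter windows came from a RefSeq table (GRCm38.p6), which is not complete.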

Additional observations from a re-analysis of the deposited data

How the results depend on the processing

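Counting genes by the FDR alone gave 32, 35 and 33 members for PA against BSA in siNtc, siErk3 and siMk5, in place of 17, 19 and 19. Leaving out each library in turn gave 17 to 20, 17 to 20 and 18 to 20 members, and the other alternatives 16 to 17, 19 to 20 and 16 to 19, of which the 16 in siMk5 came with the 18S share as a covariate. DESeq2 gave 17, 19 and 17. The median log2 fold change of the 41 genes ranged over the alternatives from 0.23 to 0.31, 0.27 to 0.34 and 0.27 to 0.32. In the other 8 comparisons 0 members were called under each alternative run. Of 770 values of called genes under 14 alternatives each, 737 stayed called, 33 lost the call and 0 changed sign. The FDR alone is the main fit without the fold criterion, so all 55 gene results keep their call and sign there by construction. The losses fell on 8 of 55 gene results, those of Mitf, Atg5, Atg16l1, Atp6v0d1, Lamp2 and Tfeb given above, and their cause was not tested. Libraries with the same replicate number deviated together in some groups and in opposite directions in others (mean correlation of deviations -0.01, range -0.61 to 0.52 over 45 pairs and 10553 genes, 9 pairs over 0.1). In PA, siErk3 and siMk5 correlated at 0.516 for replicate 1 and 0.432 for replicate 3. For the same replicates siNtc PA gave -0.607 and -0.595 with siErk3 PA, and -0.501 and -0.408 with siMk5 PA. The mean hides this structure, and its source was not tested. With the replicate block 17, 19 and 19 members were called, and 0 in each other comparison. Mitf and Tfeb had the lowest CPM among the called members, and whether depth bears on the lost calls was not tested.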
